A study of Mus musculus with 2 samples.

Results

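A list of 10 genes encoding transcription factors of naive pluripotency was examined for binding of CHD2 at their loci: Pou5f1, Sox2, Nanog, Klf2, Klf4, Klf5, Esrrb, Tfcp2l1, Tbx3 and Zfp42. The genes were listed by name, with earlier results of these data known, and a locus is the gene body with 50 kb on each side. They are 10 of 21531 protein-coding genes with a known strand, and their loci held 29 of the 8282 peaks of the optimal list on mm10. CHD2 was precipitated from chromatin of ES-E14, an embryonic stem cell line from a male mouse embryo of strain 129/Ola, in 2 biological replicates that form 1 group. No genotype, treatment or time was compared. The line is a single established line, and its control library was not analysed here.

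CHD2 is a chromodomain helicase that remodels nucleosomes with the energy of ATP. The 10 genes belong to the network that keeps embryonic stem cells in the naive state, in which POU5F1 (OCT4) and SOX2 bind DNA together and the other factors reinforce their programme. Many genes of this network are known to be driven by enhancers away from their promoters. The peak lists hold positions and the peak caller's own signal per peak, without expression, so the presence of the cell type's markers could not be checked from these data.

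The sequences under several of these peaks and promoters carry the letters that the results refer to. Around the summits of 6 peaks of the separate mm9 list, 101 bases are shown on the plus strand, chosen because these were the strongest peaks of their loci or held a searched motif; capitals mark motif matches, and a sequence without capitals held none of the searched motifs. The Pou5f1 upstream peak (chr17:35640970-35641070) held the POU-SOX composite GCATNACAA on the plus strand, overlapping a SOX match ACAAAG. The Nanog upstream peak (chr6:122652556-122652656) and the Zfp42 upstream peak (chr8:44406310-44406410) held no match. The peak just upstream of the Klf5 TSS (transcription start site; chr14:99697763-99697863) held the NFY box CCAAT on the minus strand, printed as ATTGG, and the peak downstream of Pou5f1 (chr17:35653848-35653948) held that box at 2 places on the minus strand. The intronic Esrrb peak (chr12:87842617-87842717) held the ESRRB letters AAGGTCA on the minus strand, printed as TGACCTT, starting at the summit itself.
Pou5f1 upstream: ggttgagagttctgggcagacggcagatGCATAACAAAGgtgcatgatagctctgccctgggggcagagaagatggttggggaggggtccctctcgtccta
Pou5f1 downstream: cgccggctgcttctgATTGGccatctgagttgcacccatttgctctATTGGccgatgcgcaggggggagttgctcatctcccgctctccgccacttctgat
Nanog upstream: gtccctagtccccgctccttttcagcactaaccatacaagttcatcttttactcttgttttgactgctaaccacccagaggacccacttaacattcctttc
Klf5 promoter: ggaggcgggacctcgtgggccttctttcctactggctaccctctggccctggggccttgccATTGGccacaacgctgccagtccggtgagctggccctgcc
Esrrb intron: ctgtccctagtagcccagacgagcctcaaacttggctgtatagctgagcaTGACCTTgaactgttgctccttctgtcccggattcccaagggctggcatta
Zfp42 upstream: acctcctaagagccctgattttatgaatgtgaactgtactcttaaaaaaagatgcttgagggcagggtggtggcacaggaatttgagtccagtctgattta

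A pair of promoters is shown because the replicates' peaks there differed in their standing. These are the 250 bases upstream of the transcription start, from RefSeq on GRCm38.p6, both on the plus strand. In the Sox2 promoter (chr3:34649745-34649994) the capitals are, in order, the SP box GGGCGG, the SOX letters ACAAAG, the SP box on the minus strand and the NFY box on the minus strand. In the Nanog promoter (chr6:122707239-122707488) the capitals are a POU-SOX composite that starts at position -72 from the TSS.
Sox2 promoter: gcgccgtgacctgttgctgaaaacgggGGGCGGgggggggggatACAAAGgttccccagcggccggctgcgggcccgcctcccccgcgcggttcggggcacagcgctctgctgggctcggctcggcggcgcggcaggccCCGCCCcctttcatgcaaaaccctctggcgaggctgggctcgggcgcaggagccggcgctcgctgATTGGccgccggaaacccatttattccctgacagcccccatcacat
Nanog promoter: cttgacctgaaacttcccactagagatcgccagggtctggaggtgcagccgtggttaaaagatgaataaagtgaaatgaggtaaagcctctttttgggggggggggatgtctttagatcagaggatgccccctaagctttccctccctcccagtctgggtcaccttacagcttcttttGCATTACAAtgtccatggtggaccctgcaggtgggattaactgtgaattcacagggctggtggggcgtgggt

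Every locus held at least 1 CHD2 peak. In the optimal list, which was made from both replicates by the irreproducible discovery rate procedure (a measure of how well a peak's rank recurs), 10 of 10 members had a peak, where 50.5% of all protein-coding genes did. In the conservative list of 7530 peaks, from the same procedure, 10 of 10 members had a peak, against 48.4% of all genes. Among the 20000 strongest peaks of the pooled relaxed list 10 of 10 members were again marked, against 69.4% of genes. Among the 20000 strongest of replicate 1 the figures were 10 of 10 and 69.3%, and among those of replicate 2 they were 10 of 10 and 69.6%. A peak of replicate 1 that overlapped a peak of replicate 2 by 1 bp or more, both among these 20000, lay at 10 of 10 member loci and at 51.1% of all loci. The member count was lower under 2 stricter settings given below. With 10 genes the exact Clopper-Pearson 95% interval of a share of 100% starts at 69.2%, which lies just under the background for a single replicate. No test was made, because there is 1 group, genes are not replicates and the list was chosen with earlier results known.

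The members stood further from the background in the number and placement of their peaks. They carried a mean of 2.9 optimal peaks per locus (median 2.5), against 1.06 (median 1) over all genes. The windows were not longer than usual, with a median of 109.5 kb for the members and 117.3 kb for all genes. At least 2 peaks lay at 7 of 10 members, against 26.8% of genes, at least 3 at 5 of 10, against 14.1%, at least 4 at 4 of 10, against 7.23%, and at least 5 at 3 of 10, against 3.53%. With overlapping peaks merged, at least 3 lay at 4 of 10, against 12.0%, because Klf4 drops out. The higher counts depended on the list and on merging. In the conservative list at least 3 lay at 7 of 10, against 12.2%, and at least 4 at 3 of 10, against 6.09%. At least 5 lay at Pou5f1 alone, against 3.10% of genes. With overlapping conservative peaks merged, at least 3 lay at 5 of 10, against 10.1%, because Tfcp2l1 and Tbx3 drop out. At least 4 then lay at 2 of 10, against 4.61%. Counting only peaks nearest to the gene's own TSS, the members with at least 2, 3, 4 and 5 numbered 7, 5, 3 and 2 of 10, against 6.41%, 1.89%, 0.701% and 0.274% of all genes. Per 100 kb of window the members held 2.26 optimal peaks and all genes 0.716. A peak whose nearest protein-coding TSS was that of the gene itself lay in 10 of 10 member windows, against 23.8% of all gene windows. The same kind of peak more than 1 kb from the TSS lay in 10 of 10 member windows, against 13.9% of all. Within 1 kb of the TSS, by contrast, 2 of 10 members (Sox2 and Klf5) had a summit, a share of 20% whose interval of 2.52% to 55.6% includes the 14.1% of all genes. Within 2.5 kb of the TSS, 5 of 10 members had a summit (Pou5f1, Sox2, Klf2, Klf5 and Tfcp2l1), against 16.2% of all genes.

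Gene density bears on such counts, since a window with many genes can hold peaks of its neighbours. The 9 members other than Pou5f1 had no other protein-coding TSS in the window. An optimal peak lay at 9 of 9 such members, against 29.2% of the 4103 genes of this kind. A peak more than 1 kb from the TSS lay in 9 of 9 of these member windows, against 20.5% of such windows. A summit within 1 kb of the TSS was present at 2 of 9 members, against 8.41% of such genes. At least 2 optimal peaks lay at 6 of 9, against 11.7%, and 5 or more lay at 2 of 9, against 0.999%.

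**Figure D1:**
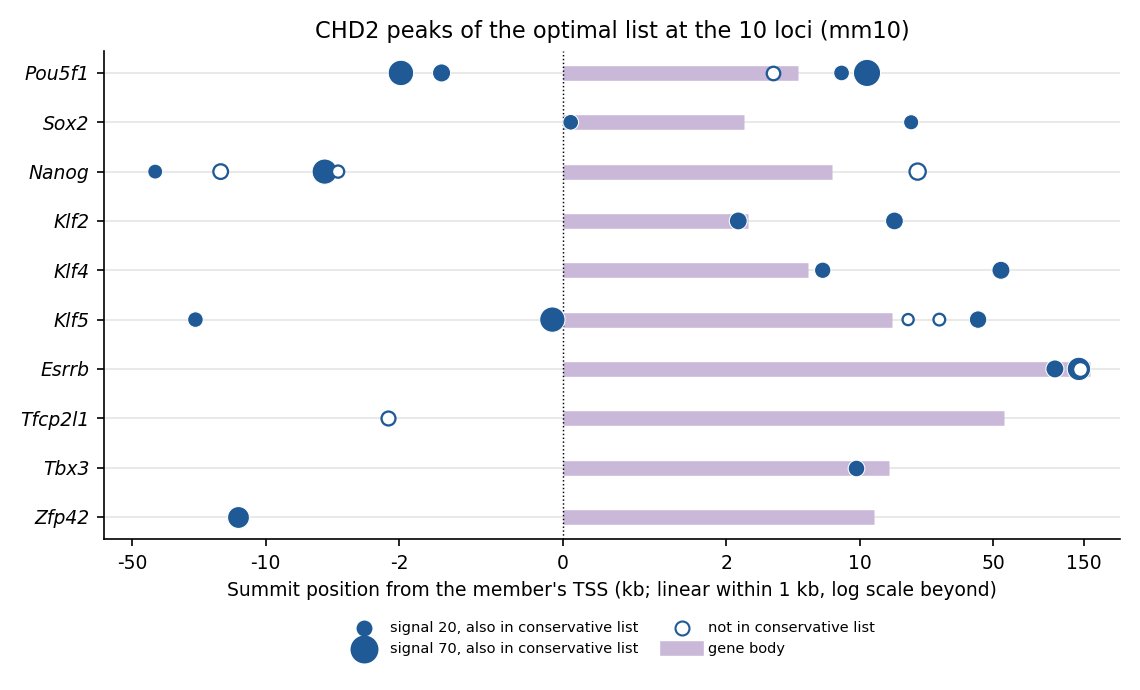
Position of each of the 29 optimal CHD2 peaks (points) from the member's TSS in kb, linear within 1 kb and logarithmic beyond, for the 10 genes, with positive values downstream. Point area follows the peak's signal, open points mark peaks without an overlapping conservative peak, and the bars are gene bodies; only Sox2 and Klf5 have a point within 1 kb of the TSS.

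Pou5f1 encodes OCT4, the POU factor at the centre of the network. Its locus (chr17, 35506032 to 35510777, plus strand) held 5 optimal peaks, a number reached by 3.53% of genes. The strongest that belonged to Pou5f1 lay at -1.96 kb from the TSS, where negative is upstream, with an optimal signal of 67.8, rank 1341 of 8282. Its signal was 36.4 in replicate 1 and 32.8 in replicate 2, each in the replicate's own list. A second upstream peak at -1.20 kb had an optimal signal of 34.4, with 18.99 in replicate 1 and 18.97 in replicate 2. Both upstream peaks thus had close signals in the replicates. Pou5f1 is known to have a proximal and a distal enhancer upstream of its promoter; whether these peaks coincide with them was not tested.

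Inside the gene, a weaker Pou5f1 peak at +3.50 kb had an optimal signal of 19.0, with 11.7 in replicate 1 and 6.82 in replicate 2. Its rank of 28905 put it outside the 20000 strongest of replicate 2, and the conservative list did not hold it. It lay 721 bp from a second transcription start that RefSeq gives for the gene. The remaining 2 peaks of the window were nearer to other genes. One, at +8.04 kb with a signal of 26.0, was 2770 bp from the TSS of Tcf19. The other, at +10.9 kb, was the strongest of all 29 with a signal of 77.1, and lay -96 bp from the TSS of Cchcr1, the nearest on mm10. Signals at that peak were 35.7 in replicate 1 and 35.4 in replicate 2. Tcf19 and Cchcr1 are neighbours with starts close together, and on the mm9 annotation the nearest start to the same kind of peak was that of Tcf19, at -129 bp. The Pou5f1 window also holds the starts of H2-Q10, Psors1c2 and Cdsn.

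Sox2, the HMG-box partner of OCT4, had 2 optimal peaks in its window (chr3, gene body 34649995 to 34652461). The promoter peak had its summit at +0.076 kb and an optimal signal of 25.7, rank 5045. Its signal was 17.2 in replicate 1, rank 3721, and 9.11 in replicate 2, rank 13950. The peak at +18.6 kb went the other way, with 11.0 in replicate 1 and 17.7 in replicate 2, and an optimal signal of 24.0. A further peak at +5.25 kb stood in the conservative list and among the 20000 strongest of both replicates, but not in the optimal list, with 9.90 in replicate 1 and 8.93 in replicate 2. None of the Sox2 peaks was among the 4141 strongest optimal peaks.

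Nanog, the homeodomain factor that sustains self-renewal, had 5 optimal peaks in its window (chr6, gene body 122707489 to 122714633), and each was nearer to Nanog than to any other protein-coding TSS. As many peaks nearest to 1 gene were found at 0.274% of all genes. The strongest lay at -4.90 kb with an optimal signal of 66.7, rank 1360, and with 37.7 in replicate 1 and 28.4 in replicate 2. A smaller peak beside it at -4.17 kb had 15.6 in the optimal list, 13.0 in replicate 1 and 14.5 in replicate 2. Farther upstream, the peak at -37.8 kb had 23.3 in the optimal list and close replicate values of 13.8 and 13.0 in replicates 1 and 2. The last 2 peaks differed between replicates. At -17.2 kb the signal was 6.36 in replicate 1, rank 49318, and 14.1 in replicate 2, rank 5604. At +20.1 kb it was 6.68 in replicate 1, rank 40876, and 23.6 in replicate 2, rank 2321, and neither of these peaks was in the conservative list.

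At the Nanog promoter the lists differed. The pooled relaxed list held a peak at -0.166 kb with a signal of 26.2, rank 5217, and both replicates had an overlapping peak among their 20000 strongest. Its signal was 8.10 in replicate 1, rank 19973, the lower end of that set, and 14.9 in replicate 2, rank 5024. Neither the optimal nor the conservative list held this peak, although 26.2 lies within the range of the optimal peaks at the loci. Its summit fell in the promoter sequence printed above, which also holds the POU-SOX composite.

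Klf2, Klf4 and Klf5 encode Krüppel-like zinc finger factors that act partly in place of each other in naive cells. Klf2 (chr8, 72319062 to 72321654) had 2 optimal peaks of nearly equal signal, 33.6 at +2.31 kb, inside the gene near its 3′ end, and 33.2 at +15.2 kb. At the first, the signal was 18.0 in replicate 1 and 12.2 in replicate 2. At the second it was 18.2 in replicate 1 and 16.4 in replicate 2. All 4 replicate peaks were among the 20000 strongest of their list.

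Klf4 (chr4, 55527137 to 55532475, minus strand) had all its optimal peaks downstream of the gene. Peaks at +6.20 kb and +6.40 kb overlapped each other and the same replicate peaks, so they are a single site in the replicates although the list and the counts above hold them as 2 peaks; their optimal signals were 12.0 and 28.0, and the shared replicate signals were 17.0 in replicate 1 and 13.9 in replicate 2. The peak at +54.9 kb had 34.0 in the optimal list, 19.3 in replicate 1 and 12.8 in replicate 2. It overlapped the locus window because the window runs 50 kb past the gene's end. Only replicate 2 had a Klf4 promoter peak among its 20000 strongest, at -0.283 kb with a signal of 9.46.

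Klf5 (chr14, 99298691 to 99313412) carried the strongest promoter peak among the members. Its summit lay at -0.097 kb with an optimal signal of 67.3, rank 1353, and 32.2 in replicate 1 and 33.2 in replicate 2, so the replicates had nearly equal values there. The peak at +41.7 kb was also alike in the replicates, with 16.3 in replicate 1, 17.4 in replicate 2 and 32.0 in the optimal list. The peak at -23.3 kb had 22.1 in replicate 1 and 10.9 in replicate 2. The other 2 were weak. At +17.9 kb the signals were 6.81 in replicate 1 and 5.78 in replicate 2, both outside the 20000 strongest, and at +26.1 kb replicate 1 had no peak while replicate 2 had 16.2.

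Esrrb encodes an orphan nuclear receptor that cooperates with the core factors. Its 4 optimal peaks all lay inside the gene (chr12, 86361117 to 86521628), between +105 kb and +143 kb from the outer TSS and at least 44724 bp from the second start that RefSeq gives. The strongest, at +140.6 kb, had an optimal signal of 57.3, rank 1640, with 36.3 in replicate 1 and 18.2 in replicate 2. The peaks at +105 kb and +138 kb had optimal signals of 34.0 and 31.4. The peak at +143 kb had 22.9 in the optimal list, 17.3 in replicate 1 and 9.12 in replicate 2, and was not in the conservative list. All 4 were higher in replicate 1. When only 50 kb on each side of the TSS was taken as the locus, Esrrb had no optimal peak, and the members with a peak numbered 9.

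Tfcp2l1, a CP2-family factor downstream of LIF signalling, had 1 optimal peak (chr1, gene body 118627923 to 118685168). It lay at -2.29 kb with a signal of 20.3, and the replicates disagreed on it: 5.06 in replicate 1, rank 115388, against 14.1 in replicate 2, rank 5591. The conservative list did not hold it and placed 3 other peaks inside the gene, at +14.8 kb, +20.3 kb and +20.5 kb, the last pair overlapping the same replicate peaks. At +14.8 kb the conservative signal was 21.3, with 9.44 in replicate 1 and 17.4 in replicate 2. At +20.3 kb it was 17.5, with 9.28 in replicate 1 and 14.9 in replicate 2. The peaks that recurred between replicates at Tfcp2l1 were thus those of the conservative list.

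Tbx3, a T-box factor, had 1 optimal peak at +9.54 kb (chr5, gene body 119670534 to 119684724) with a signal of 29.0. Its replicate signals were 24.7, rank 2099, in replicate 1 and 8.38, rank 17067, in replicate 2. The conservative list held this peak and a pair of overlapping ones near -12.9 kb, where the signal was 9.28 in replicate 1 and 10.1 in replicate 2. Zfp42, which encodes the zinc finger protein REX1, a widely used marker of the naive state, had 1 optimal peak at -14.0 kb (chr8, gene body 43295067 to 43307009, minus strand). It had an optimal signal of 50.04, rank 1957, and nearly equal values in the replicates, 24.6 in replicate 1 and 24.7 in replicate 2.

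**Figure D2:**
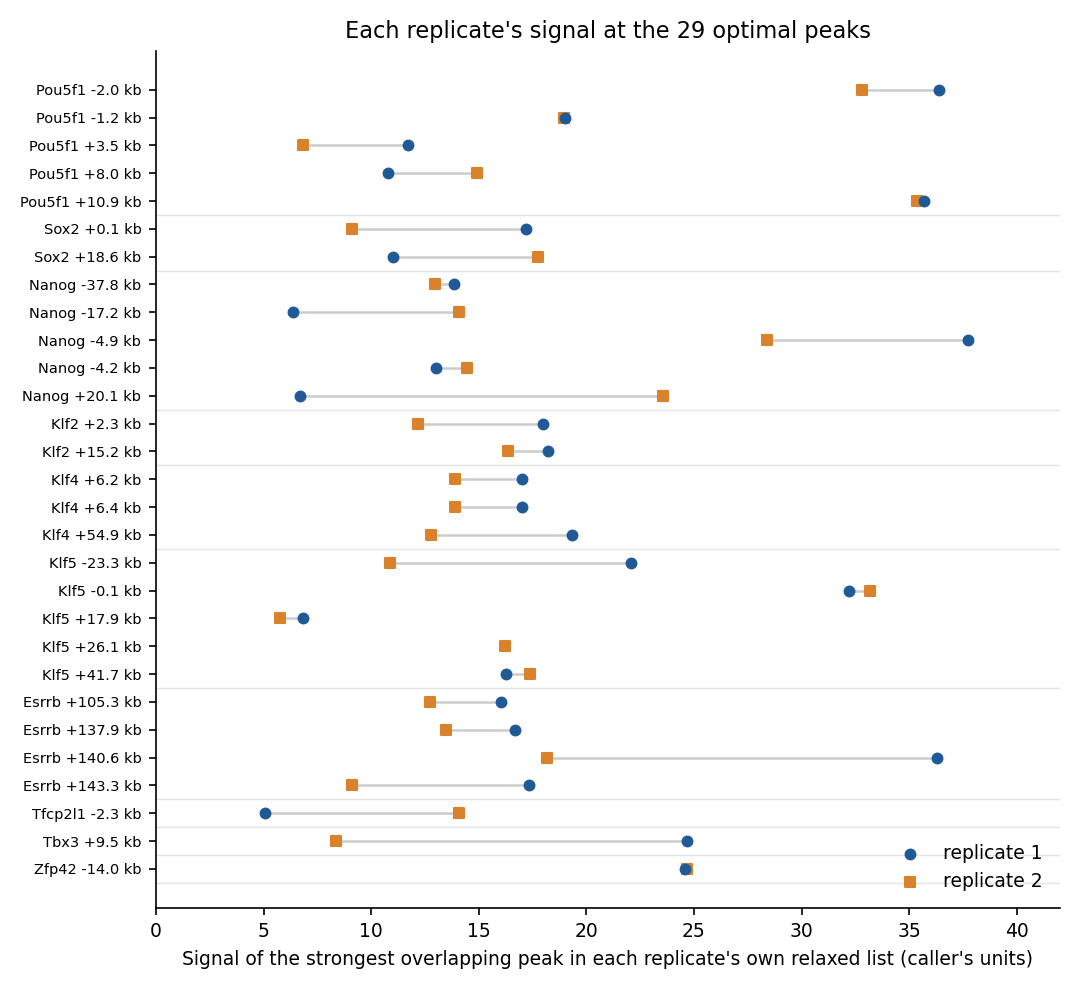
Signal in replicate 1 and in replicate 2 (x axis, the caller's units, from the relaxed list of that replicate) for each of the 29 optimal peaks (y axis, gene and distance from the TSS), with circles for replicate 1 and squares for replicate 2. The Nanog peak at +20.1 kb (6.68 and 23.6 in replicates 1 and 2) and the Tbx3 peak (24.7 and 8.38) differ between the replicates in opposite directions, and the Klf5 peak at +26.1 kb has no point for replicate 1.

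As a set, the 29 peaks were of ordinary strength. Their signals ran from 12.0 to 77.1 with a median of 28.0, against a median of 29.6 over all 8282 optimal peaks. The 4141 strongest optimal peaks held 13 of the 29, or 44.8%, and these lay at 7 of 10 members, where 37.9% of all genes had such a peak; Sox2, Tfcp2l1 and Tbx3 had none. Distal peaks, over 10 kb from the nearest TSS, had a median of 27.5 at the member loci and 26.7 over all distal peaks. Peaks 1 to 10 kb from a TSS had 28.0 at the members and 27.0 over all. The 3 promoter peaks of the windows had a median of 67.3, against 40.2 over all promoter peaks, but they include the peak beside Cchcr1.

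The replicates shared the member peaks about as often as other peaks. Of the 29, 23 overlapped a peak among the 20000 strongest of both replicates, a share of 79.3% (60.3% to 92.0%), against 75.8% of all optimal peaks. A conservative peak overlapped 21 of the 29, or 72.4%, the same share as over all optimal peaks. Of the 28 peaks matched in both replicates, 20 ranked higher in replicate 1 and 8 in replicate 2, whereas over all optimal peaks 3858 ranked higher in replicate 1 and 4116 in replicate 2. Starting from replicate 1, 31 of its 69 peaks at the loci among the 20000 strongest recurred in replicate 2, or 44.9% (32.9% to 57.4%), against 40.5% of all 20000. From replicate 2 it was 30 of 63, or 47.6% (34.9% to 60.6%), against 40.7%. These intervals cover counting error only, and each includes the value over all peaks.

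Fewer of the member peaks lay at a promoter than of all CHD2 peaks, but not clearly fewer than in other windows with a single TSS. By the nearest protein-coding TSS, 3 of the 29 peaks lay within 1 kb, a share of 10.3% (2.19% to 27.4%), against 34.9% of all optimal peaks, and the interval lies below that value. At the 9 loci with no other TSS it was 2 of 24, or 8.33% (1.03% to 27.0%), against 19.9% of the 1959 peaks in all windows of that kind, a value within the interval. Peaks 1 to 10 kb away made up 11 of 29, or 37.9% (20.7% to 57.7%), against 20.7%. Distal peaks made up 15 of 29, or 51.7% (32.5% to 70.6%), against 44.1%. Relative to the member gene, 8 peaks lay inside it, 10 upstream and 11 downstream. Peaks of 1 locus share their surroundings and are not independent, so the intervals are narrower than they would be over loci.

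**Figure D3:**
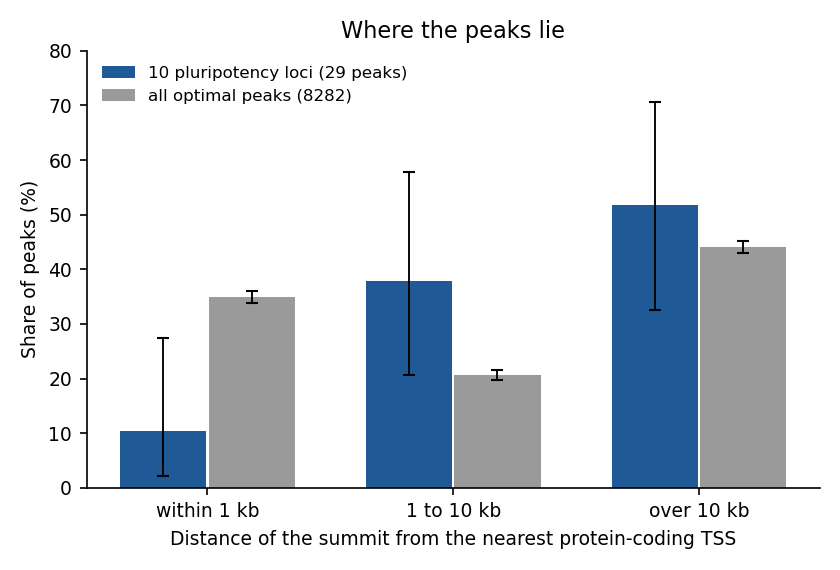
Share of peaks (y axis, %) within 1 kb, 1 to 10 kb and over 10 kb of the nearest protein-coding TSS (x axis) for the 29 peaks at the member loci (left bars) and all 8282 optimal peaks (right bars), with exact 95% intervals for counting error. The promoter share is 10.3% at the member loci and 34.9% over all peaks.

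The CpG content of the member peaks was close to that of CHD2 peaks away from promoters. This was read from the mm9 list, since the genome sequence used here is mm9; that list held 4613 peaks, of which 15 lay at 8 of the 10 loci (none at Sox2 or Klf4), where 38.5% of all genes had an mm9 peak. The CpG content observed over that expected from the C and G bases, in 301 bp around the summit, had a median of 0.215 at the members and 0.467 over all mm9 peaks. For peaks over 1 kb from the nearest TSS the medians were 0.213 at the members and 0.242 over all 2654 such peaks. The 2 peaks near a TSS, at Klf5 with 0.766 and downstream of Pou5f1 with 0.906, were close to the median of 0.802 of all 1959 promoter peaks.

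**Figure D4:**
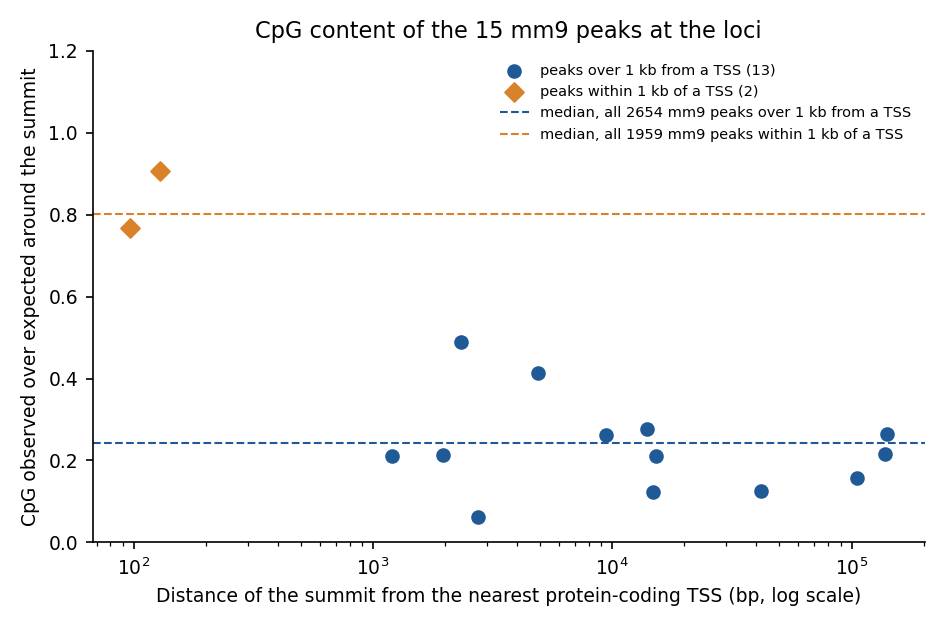
CpG observed over expected in 301 bp (y axis) for the 15 mm9 peaks at the member loci against the distance of the summit from the nearest protein-coding TSS (x axis, bp, log scale), with dashed lines for the medians over all mm9 peaks of each kind. The 2 promoter peaks (diamonds, 0.766 and 0.906) lie near the promoter median of 0.802, and the 13 others (circles) lie between 0.0614 and 0.488.

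The searched motif letters were found around 6 of the 15 member summits on mm9. This count takes any of 14 motifs within 50 bp of the summit, and the share was 40% (16.3% to 67.7%), against 64.4% of all mm9 peaks and 58.9% of those over 1 kb from a TSS. The searched letters, on both strands, were the octamer ATGCAAAT, SOX letters ACAATGG and ACAAAG, the CACCC box GGGTGGG, SP GGGCGG, ESRRB AAGGTCA, STAT TTCCNGGAA, the TFCP2L1 motif, NFY CCAAT, CRE TGACGTCA, AP1 TGANTCA, ETS CCGGAAG, the NRF1 motif and the E-box CACGTG. NFY letters lay at 3 of 15 peaks, against 38.2% of all, at the Klf5 promoter and at both peaks downstream of Pou5f1. ESRRB letters lay at 2 of 15, against 3.88%, in the Esrrb intron and at +41.7 kb from Klf5. The octamer was at 0 of 15, against 1.58%. SOX ACAAAG lay at 1 of 15, the Pou5f1 peak at -1.96 kb, against 9.73%, and SP letters at 0, against 14.4%. The octamer or SOX letters lay at 1 of 15, or 6.67% (0.169% to 31.9%). That share was 12.6% over all mm9 peaks and 17.7% over those more than 1 kb from a TSS, both within the interval. Among peaks over 1 kb from a TSS, NFY letters were at 1 of 13, against 30.1% of all such peaks. ESRRB letters were at 2 of these 13, against 5.69%, and the octamer at 0, against 2.11%. The POU-SOX composite, searched in addition after the sequences had been seen, was at 1 of 15, the Pou5f1 peak at -1.96 kb, against 1.85% of all mm9 peaks over 1 kb from a TSS and 1.11% of all mm9 peaks. In the RefSeq promoter table, which holds 8 of the 10 members with 11 promoters, the composite was present at Nanog alone, and in 0.731% of all 32851 promoters. Fixed motifs were at more of the 11. The CACCC box lay in 7, against 17.5% of all promoters, and SP and NFY in 5 each, against 35.7% and 37.4%. SOX ACAATGG lay in 2, against 3.66%, SOX ACAAAG in 1, against 18.7%, and the octamer in 1, against 1.74%. ESRRB letters lay in 0, against 4.72%.

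Other gene lists placed these counts. Of 28 other genes of the pluripotency network, 28 had a peak among the 20000 strongest of the pooled list, and likewise of each replicate, as all 10 members did. In the conservative list 22 of them (78.6%) had a peak, against 48.4% of all genes. In the optimal list 19 (67.9%, 47.6% to 84.1%) had one, against 50.5% of all genes. An optimal peak over 1 kb from its nearest TSS, which was that gene's, lay at 15 of the 28, against 13.9% of all genes. The strongest optimal promoter peak of this list was at Fbxo15, with a signal of 67.2. Stat3, the effector of LIF signalling, had an optimal promoter peak of signal 41.9, and Rif1 had one of 38.5. Dppa2, Dppa4 and Fgf4 had no optimal peak in the window, although each had peaks there among the 20000 strongest. Of 20 formative and lineage factors, 11 (55%, 31.5% to 76.9%) had an optimal peak, near the 50.5% of all genes. By the rule of over 1 kb from the gene's own nearest TSS, 7 of the 20 had one. That share was 35% (15.4% to 59.2%), against 13.9% of all genes. Etv5 led with a promoter signal of 49.9, and Eomes, Foxa2 and Gata6, regulators of mesoderm and endoderm, had no optimal peak. Among 14 other Klf genes, 12 (85.7%, 57.2% to 98.2%) had an optimal peak in the window, against 50.5% of all genes. A peak over 1 kb from its nearest TSS, which was that gene's, lay at 6 of the 14, against 13.9% of all genes. A summit within 1 kb of the TSS lay at 6 (42.9%, 17.7% to 71.1%), against 14.1% of all genes, with the strongest at Klf10 (75.0). Of the member Klf genes only Klf5 had such a promoter summit in the optimal list. The differences between the lists were not tested.

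**Figure D5:**
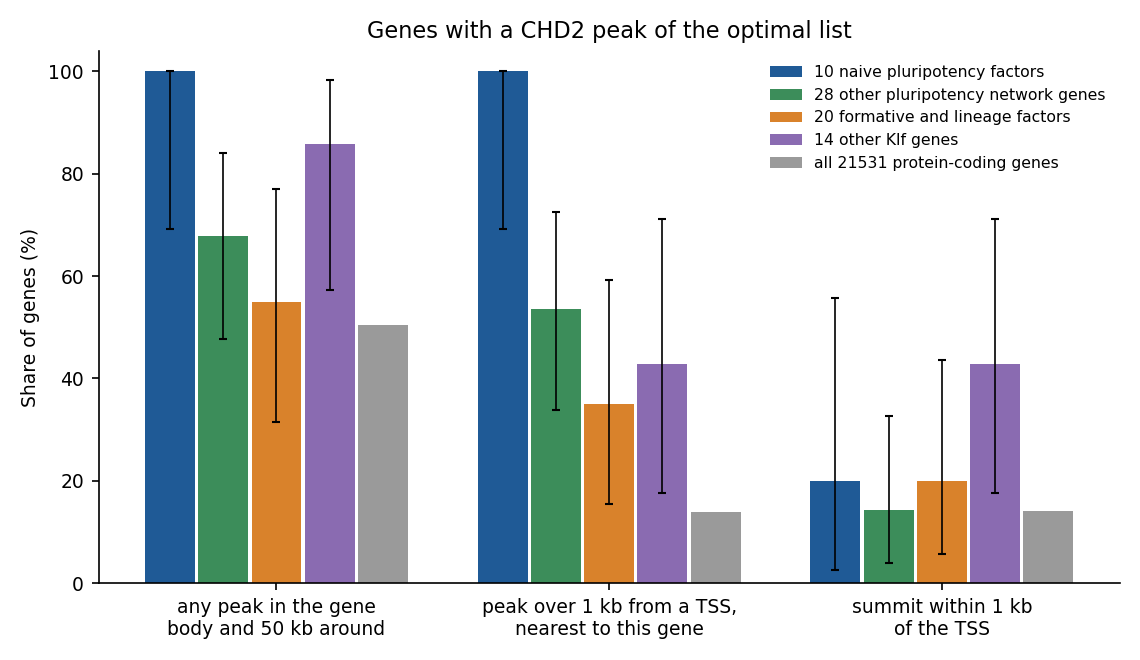
Share of genes (y axis, %) with an optimal CHD2 peak by 3 rules (x axis) for the 10 members, 3 other lists and all 21531 protein-coding genes, with exact 95% intervals for the lists. For peaks over 1 kb from a TSS the members are at 100% and all genes at 13.9%, while for summits within 1 kb of the TSS the members are at 20% and all genes at 14.1%.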

How the data were processed

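Per the labels, CHD2 ChIP-seq was done in 2 biological replicates of 1 cell line. The deposited files are peak lists. Each peak carries the authors' signal value, whose normalization is not given, and a −log10 q-value, which the authors deposited and which served only to rank peaks in an alternative. Per the deposited descriptions, relaxed lists of each replicate and of the pooled data (300000 peaks each) fed the procedure behind the optimal and conservative lists. Aligner, peak caller and thresholds: not given in the sources used here. Read depth is unknown, and relaxed lists include background by design.

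Peaks were assigned to loci by overlap of 1 bp or more, with genes from RefSeq GRCm38.p6. The strand came from the RefSeq promoter table for 17492 genes and from GENCODE M1 for 4039, including Klf5 and Tbx3 (of 21900). Each optimal peak was matched to the strongest overlapping peak of each replicate. Coordinates were never converted between builds. Shares have exact Clopper-Pearson 95% intervals for counting error. Scripts ran in Python 3.11.15 with pandas 2.3.3 and scipy 1.17.1 and were tested on simulated data. All members and all their optimal peaks are named, with up to 3 genes with the strongest promoter peak and up to 3 without a peak per other list, of which some are left out. Members and lists were chosen with earlier results of these data known.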

Additional observations from a re-analysis of the deposited data

How the results depend on the processing

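The number of members with a peak stayed at 10 under 8 of 11 alternatives and was 9 around the TSS alone, 8 in the mm9 list (none at Sox2 or Klf4) and 7 among the 4141 strongest optimal peaks. The 29 peaks at the loci became 50 with 150 kb beside the gene, 13 among the 4141 strongest and 15 in the mm9 list, and 28 when overlapping peaks were merged. Their median signal of 28.0 became 34.4 among the 4141 strongest and 45.3 in the mm9 list. With each replicate left out in turn it ran from 14.9 to 17.0 on the scale of the remaining replicate's own list, with 29 to 31 peaks. Members with at least 5 peaks, 3 in the optimal list, numbered 1 in the conservative list with or without merging of overlapping peaks, and those with at least 4, 4 in the optimal list, numbered 2 in the merged conservative list. Members with a promoter summit numbered 5 within 2.5 kb, 1 among the 4141 strongest and 1 in the mm9 list. They numbered 3 in the conservative list (Pou5f1, Sox2 and Klf5), where the Pou5f1 summit lay at -0.993 kb with a signal of 6.43. Among the strongest pooled peaks, as many as the optimal list, they also numbered 3 (Sox2, Nanog and Klf5). With either replicate left out they numbered 2, but these were Nanog and Klf5 without replicate 1, and Sox2 and Klf5 without replicate 2. The share of replicate 1 peaks that recurred fell to 31.9% when an overlap of 50% of both peaks was required, and leaving out a replicate cannot give this share. Members with such a recurring peak, 10 in the main setting, numbered 8 with that overlap. They numbered 7 when only as many peaks per replicate were taken as the optimal list holds. Over all genes these 2 counts were not made. Motif matches numbered 13 of 15 over whole peaks, 11 of 22 with 100 kb beside the gene, and 1 for the POU-SOX composite alone. The 11 of 22 (50%) were within 50 bp of the summit, where 64.4% of all mm9 peaks had a match. For whole peaks the share over all mm9 peaks was not counted, so the 13 of 15 cannot be set against it. NFY letters alone lay in 55.2% of all whole mm9 peaks. Merging, the conservative counts of loci with several peaks, the nearest-TSS count and the composite were chosen after seeing the data. The causes were not tested. Read depth is unknown, so no limit of detection can be given. No paired analysis was possible because there was 1 group and no test between groups.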

Other observations

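Beyond the 50 kb windows, 21 further optimal peaks lay 50 to 150 kb from the members' gene ends, and 10 of these had the member's TSS as their nearest protein-coding start. The same counts over all genes were not made, so whether these numbers exceed the background is not known. Sox2, whose main known enhancer in embryonic stem cells lies far downstream, had 5 of the 10. They lay at -90.7 kb with a signal of 27.3 and at +95.5, +107, +110 and +111 kb with signals of 46.1, 26.8, 13.4 and 23.5. The peak at +95.5 kb was stronger than either optimal peak inside the Sox2 window, with 24.4 in replicate 1 and 17.8 in replicate 2. Klf4 had 3, and the one at +56.9 kb, with an optimal signal of 72.5, was stronger than every Klf4 peak inside the window. Its signal was 47.4 in replicate 1 and 27.6 in replicate 2. The other Klf4 peaks, at +67.9 and +68.1 kb, overlapped each other and the same replicate 2 peak, but are counted separately here. Neither was in the conservative list. Tbx3 had 2, at -83.1 kb with 26.4 and at -90.2 kb with 20.8. Klf5, Esrrb and Tfcp2l1 had no optimal peak in this outer range. For Nanog, 6 peaks lay there, each nearest to another gene, among them 1 near Dppa3 with a signal of 35.8 and 1 near Gdf3 with 38.9.

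Of the 31 conservative peaks at the loci, 9 overlapped no optimal peak, a share of 29.0% (14.2% to 48.0%), against 1506 of all 7530 (19.1% to 20.9%), and 8 of the 9 overlapped peaks among the 20000 strongest of both replicates. Of the 29 optimal peaks, 8 overlapped no conservative peak, or 27.6%, against 27.6% of all 8282, so the exchange between the lists at these loci was about that of the lists as a whole.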
